A study of Mus musculus with 6 samples.

Results

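Olfm4 encodes olfactomedin 4, a secreted glycoprotein with an olfactomedin domain. It is 1 of the 23016 genes in the deposited count table and was chosen by its measured UMI counts, which are split between many and almost none among neutrophils of the marrow. Neutrophils form in the marrow from granulocyte-monocyte progenitors through dividing, immature and mature stages. Their granules are filled in that order: azurophil (primary) granules hold Mpo and the serine proteases, specific (secondary) granules hold lactoferrin and cathelicidin, and gelatinase granules come last. Olfactomedin 4 is known as a specific granule protein that marks only some of the neutrophils of an individual, in mouse and human.

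All mice were wild-type, and their cells were captured in droplets and counted from the 3′ end of transcripts in 6 libraries, 1 for each group. Young and aged mice each gave steady-state marrow, steady-state blood, and marrow taken 24 h after a stroke induced by occluding the middle cerebral artery. Marrow had been enriched for cells bearing Gr1 and for cells bearing c-kit, and blood had been sorted into CD11b+ Ly6G+ and CD11b+ Ly6G- cells, so these gates help to set how common a cell type is. The labels do not say how old the mice were or how many were pooled into a library. With 1 library per group, no difference between groups could be set against the spread between animals, and the intervals below cover counting error only. Because Olfm4 was chosen for its pattern, its levels are described without a test.

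The 6 libraries held between 10208699 and 72743805 deposited UMIs (unique molecular identifiers, each counting 1 captured transcript), and 1947 to 7920 cells per library were kept. Of 27931 distinct barcodes, 104 occurred in more than 1 library, and none of the Olfm4-high lineage cells of marrow described below carried such a barcode. The doublet score found 7.51% and 12.2% of the simulated doublets in the young and aged stroke libraries, against 35.7% to 54.5% elsewhere. Doublets can therefore remain in every library, with the largest share missed after stroke. Names of cell types stand for clusters that resemble the type by its markers. The neutrophil lineage made up 20.2% of young and 18.7% of aged cells from marrow at steady state, 23.2% and 25.2% of those after stroke, and 80.2% and 62.7% of blood cells. Clusters with mixed or weak markers stayed unnamed and held 42.0%, 38.6%, 46.1% and 31.6% of the cells in the 4 marrow libraries in the same order.

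In the build GRCm38 the gene spans chromosome 14 from 79984081 to 80023139 on the + strand (ENSMUSG00000022026.7, protein coding, up to 7 exons in a transcript). Its 5′ part overlaps the lincRNA Gm6999 on the same strand, which has no row in the deposited table. Of the 1410 words of 31 bases in the last 500 bases of its transcripts, where a 3′ kit reads, 76 (5.39%) also occur in another gene's transcripts, and that gene was Gm6999. PU.1 and NF-kB are factors reported to bind the human promoter, and C/EBP factors act throughout granulopoiesis, so the promoter was searched for the core letters of each. The window was the RefSeq promoter (GRCm38.p6, from 250 bases before to 50 bases after the start at 80000302), and both strands were read. This start lies inside the span given above, not at its 5′ end, and within the overlap with Gm6999. The sequence before the 5′ end of that span was not searched. The NF-kB core, GGGA and TCCC with any 2 bases between them, which reads the same on both strands, occurred 1 time, beginning 52 bases before the start, and 0.664% of 32851 promoters hold it. The PU.1 core GAGGAA occurred 1 time, on the minus strand as TTCCTC, beginning 79 bases before the start, and 28.3% of promoters hold it. The C/EBP core TTGCNNAA (in 10.8% of promoters) and TATAAA (in 13.6%) had no match in this window. Both matches are shown on the + strand with 10 bases on either side, in capitals where the core lies. They do not overlap each other, and they are descriptions of the letters, not of binding.
PU.1 core, chr14:80000213-80000238: ccgtggctacTTCCTCtttcttcaca
NF-kB core, chr14:80000240-80000269: gctggccatgGGGAAATCCCcactgggagc

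Within the neutrophil lineage of marrow, Olfm4 was either plentiful or nearly absent in a cell. A cell with 3 or more Olfm4 UMIs is called Olfm4-high here. In young steady-state marrow 235 of 1600 lineage cells were Olfm4-high (14.7%, exact 95% binomial interval 12.99% to 16.5%). In aged steady-state marrow the count was 132 of 1158 (11.4%, 9.63% to 13.4%). After stroke it was 19 of 524 in the young library (3.63%, 2.20% to 5.60%) and 98 of 665 in the aged library (14.7%, 12.1% to 17.7%). The young stroke library therefore stood below the other 3 marrow libraries, whose shares lay between 11.4% and 14.7%, and its interval did not overlap theirs. The 2 ages moved in opposite directions between steady state and stroke, down by 11.1 percentage points in young and up by 3.34 in aged, a contrast of single libraries that was not tested. The 2 aged intervals overlapped, and with finer clusters (Leiden resolution 2) the aged shares were 11.9% at steady state and 12.7% after stroke.

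Few cells lay between the 2 states. In young steady-state marrow 1307 lineage cells had no Olfm4 UMI, 58 had 1 or 2, 56 had 3 to 9, 169 had 10 to 29 and 10 had 30 or more. In aged steady-state marrow the same classes held 994, 32, 18, 95 and 19 cells. In the aged stroke library they held 553, 14, 11, 26 and 61 cells, and in the young stroke library 494, 11, 5, 8 and 6 cells. At the edge of the threshold, exactly 2 UMIs were found in 7, 3, 2 and 2 cells (young and aged steady state, then young and aged stroke) and exactly 3 UMIs in 8, 2, 0 and 3 cells. The highest cell had 54, 62, 88 and 168 UMIs in that order. The Olfm4-high cells held 98.2%, 98.7%, 97.6% and 99.6% of the lineage's Olfm4 UMIs, and in the young stroke library 10 cells held 84.4% of them.

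**Figure D1:**
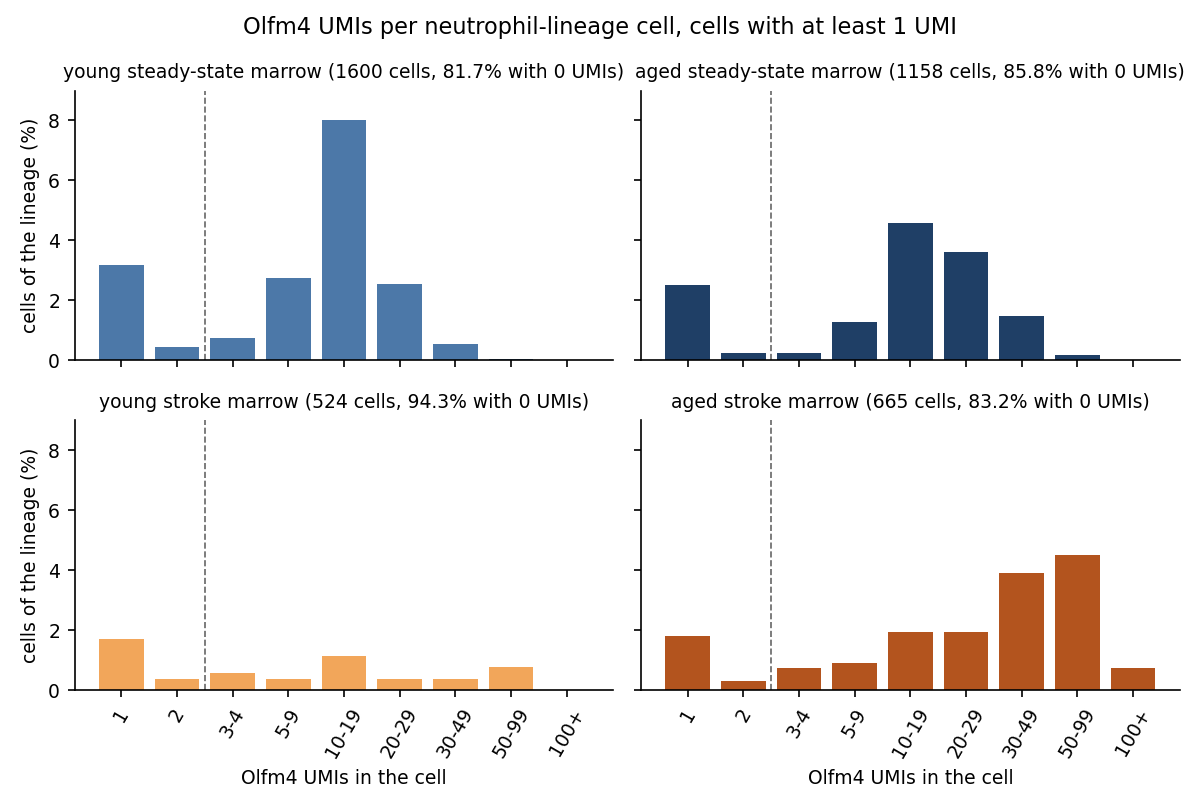
Share of neutrophil-lineage cells (y axis, percent) by the number of Olfm4 UMIs in the cell (x axis, in classes) in the 4 marrow libraries, for cells with at least 1 UMI. The dashed line marks the threshold of 3 UMIs. In each library most of the cells to the right of the line have 10 or more UMIs (179 of 235 and 114 of 132 at young and aged steady state, 14 of 19 and 87 of 98 after stroke).

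Expressed as CPM (the usual scaling of UMIs summed over cells by the total UMIs of those cells), the lineage level was 312 and 267 in young and aged steady-state marrow and 85.4 and 442 after stroke. In the Olfm4-high cells alone it was 2172, 2358, 1956 and 2426 CPM, so it differed much less between libraries than the lineage level did, including in young stroke. In the other lineage cells it was 6.52, 3.92, 2.15 and 1.98 CPM. Cells of the other named types without 3 UMIs, which serve as a measure of free RNA, had 3.82, 2.65, 0.215 and 0.984 CPM. Median depth was close in Olfm4-high and Olfm4-zero cells at steady state, at 6332 and 6678 UMIs in young and 7586 and 7678 in aged marrow. After stroke the high cells were deeper, at 10113 against 8218 UMIs in young and 15312 against 11907 in aged marrow. The median mitochondrial share was 0.433% and 0.434%, 0.307% and 0.335%, 0.636% and 0.683%, and 0.468% and 0.534% in high and zero cells of the 4 libraries.

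Thinning every cell to 2000 UMIs left the order of the libraries as it was. The share with 3 or more UMIs was then 10.97%, 8.04%, 1.88% and 11.6%, after leaving out 5, 2, 99 and 68 shallower cells. At that depth the variance of Olfm4 UMIs over the lineage cells was 6.95, 7.79, 7.80 and 7.39 times the mean. The median of genes of like mean was 1.13, 1.11, 1.09 and 1.21. In that ranking Olfm4 stood at 5 beside 380 other genes, 3 beside 435, 2 beside 1344 and 8 beside 315. Genes above it included Hbb-bs, Mpo and Ctsg in young and Mpo and Ctsg in aged steady-state marrow, Stfa1 in young stroke and Wfdc17 in aged stroke. Within the dividing stage Olfm4 ranked 1 beside 692 and 1 beside 936 other genes in young and aged steady-state marrow. After stroke it ranked 1 beside 2191 and 3 beside 576. Within the immature stage it ranked 3 beside 230, 1 beside 262, 2 beside 1090 and 1 beside 151 in the same order. Within the mature stage it ranked 5 beside 230, 4 beside 389, 6 beside 2127 and 6 beside 739. A typical gene of its mean gave a UMI in 41.3% of young steady-state lineage cells, and Olfm4 in 15.7%.

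In blood the gene was almost silent. Among neutrophil-lineage cells 7 of 1562 young cells (0.448%, 0.180% to 0.921%) and 6 of 3260 aged cells (0.184%, 0.0676% to 0.4002%) were Olfm4-high, and no cell exceeded 12 and 7 UMIs. The lineage level was 9.61 and 6.26 CPM. Other named cells of blood had 0 and 0.0541 CPM, and 1.41% and 1.595% of the lineage cells had a UMI against 0 of 341 and 0.0573% of 1744 other named cells, at median depths of 3892 and 4011 UMIs in the lineage and 7968 and 10244 in the others. The low level in blood neutrophils was thus above that of the other blood cells in both libraries. In marrow, 1 of 746 and 0 of 524 progenitors of the granulocyte-monocyte type at steady state were Olfm4-high, and 0 of 351 and 3 of 650 after stroke. Taking 3 counts as the floor, a count of 0 allows a share of up to 0.573% of 524 and 0.855% of 351 cells, and the exact 95% binomial upper limits are 0.702% and 1.05%. All named types outside the lineage, these progenitors included, held 6, 4, 0 and 4 high cells. Unnamed clusters of marrow held 47, 31, 0 and 12, mostly in clusters that join neutrophil genes with those of progenitors, monocytes or B cells.

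Olfm4-high cells were found at every stage, and the level per high cell was highest in immature cells. Stages were assigned to clusters made without Olfm4, by their markers relative to the other lineage clusters of the same context. Dividing cells carry Mki67 and Top2a, immature cells Ltf, Ngp and Ly6g, and mature cells Cxcr2, Mmp9 and Retnlg. Among all cell types, the cluster called mature at steady state scored highest as immature neutrophil (5.302). The one called mature after stroke scored highest as mature neutrophil (6.029). In young steady-state marrow 12.05% of 747 dividing, 15.3% of 614 immature and 21.7% of 129 mature cells were Olfm4-high. The intervals were 9.80% to 14.6%, 12.6% to 18.4% and 14.9% to 29.8%, so at full depth the mature interval lay just above the dividing one. The aged values were 9.31% of 451, 12.7% of 521 and 11.3% of 97, with overlapping intervals (6.79% to 12.4%, 9.93% to 15.8% and 5.80% to 19.4%). In the aged stroke library they were 17.3% of 156, 16.0% of 200 and 13.4% of 97, again with overlapping intervals (11.7% to 24.2%, 11.2% to 21.8% and 7.33% to 21.8%). In the young stroke library they were 3.95% of 76 (0.822% to 11.1%), 1.77% of 113 (0.215% to 6.25%) and 3.40% of 147 (1.11% to 7.76%), resting on 3, 2 and 5 cells. The young stroke share was thus the lowest of the marrow libraries at all 3 stages. Only its immature interval lay below all the others. Its dividing interval overlapped both steady-state ones, and its mature interval overlapped both aged ones.

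The level inside the high cells followed another order. In young steady-state marrow it was 1663 CPM in dividing, 3321 in immature and 2290 in mature cells. In aged steady-state marrow it was 1783, 3275 and 3183 CPM, and in the aged stroke library 1377, 4346 and 1296 CPM. The median high cell (with quartiles) of the aged stroke library had 1136 CPM (854 to 2016) in the dividing, 4519 (3079 to 5393) in the immature and 1147 (913 to 1568) in the mature stage, so the immature cells' middle range lay above both others. Immature cells therefore held the highest level in these 3 libraries, next to mature cells in aged steady-state marrow, where the quartiles overlapped (2230 to 3910 and 2141 to 4798 CPM). The mature clusters of the 2 contexts were not alike: the one at steady state still had 26320 CPM of Camp, a gene of the immature stages, and the one after stroke had 825.

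By cluster, the ages at steady state were furthest apart in the mature cluster and in a dividing cluster. In the mature cluster (number 26 in the plots) 21.7% of 129 young and 11.3% of 97 aged cells were Olfm4-high, with overlapping intervals (14.9% to 29.8% and 5.80% to 19.4%). The dividing cluster (number 7) was led by Elane and Prtn3, proteases of the azurophil granule. There 44 of 369 young cells were Olfm4-high (11.9%, 8.80% to 15.7%) and 8 of 210 aged cells (3.81%, 1.66% to 7.37%), and these intervals did not overlap. In the other dividing cluster the values were 12.2% of 378 and 14.1% of 241 cells. The 2 immature clusters gave 14.5% and 16.5% in young and 12.3% and 13.04% in aged marrow. Haemoglobin transcripts led 1 of these (cluster 4, 504 CPM of Hbb-bs) against the rest of the lineage, and its share was close to that of the other. A cluster with dividing and mature genes together (number 27) received no stage and held 20.9% and 14.6% high cells. After stroke every cluster with over 50 cells in both libraries had more high cells in the aged library, from 13.4% to 16.5% against 1.77% to 7.21% in the young. Clusters 16 and 24 were left out of that range: the former is shallow, with a median of 776 UMIs and 1 of 77 and 0 of 41 high cells, and the latter had 1 of 17 and 12 of 65. Of the clusters in the range, the young and aged intervals overlapped in 4, 6 and 11 and did not overlap in cluster 3.

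**Figure D2:**
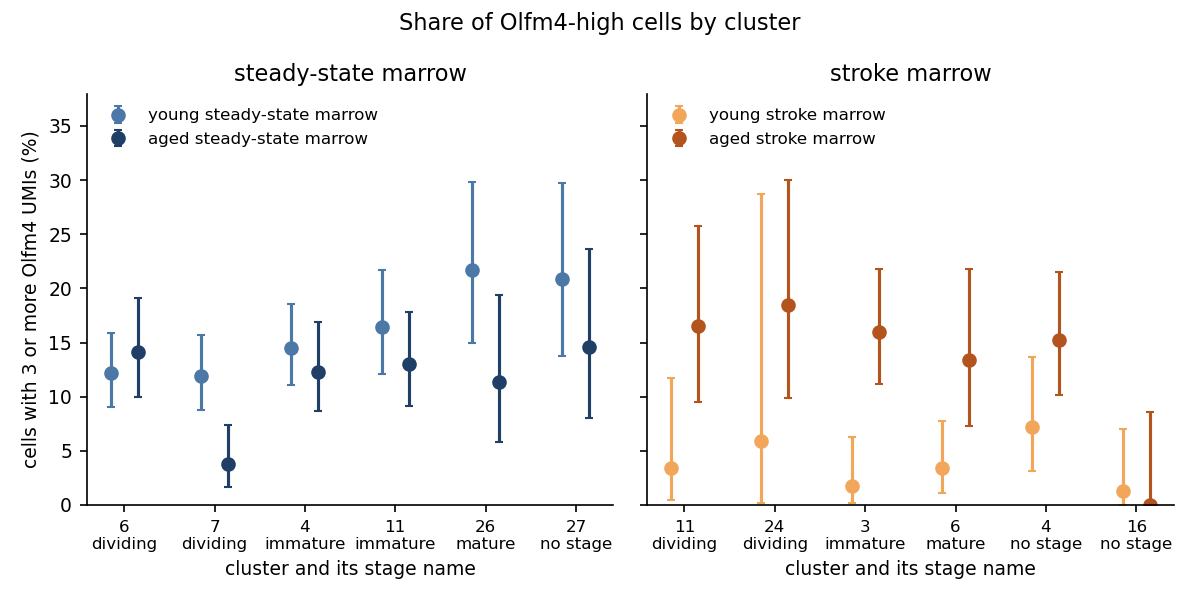
Share of cells with 3 or more Olfm4 UMIs (y axis, percent) in each neutrophil-lineage cluster of marrow (x axis, with its stage name) in young and aged libraries, with exact 95% binomial intervals that cover counting error. The young stroke points lie at 7.21% or below in every cluster, and the aged point of steady-state cluster 7 lies at 3.81%.

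**Figure D3:**
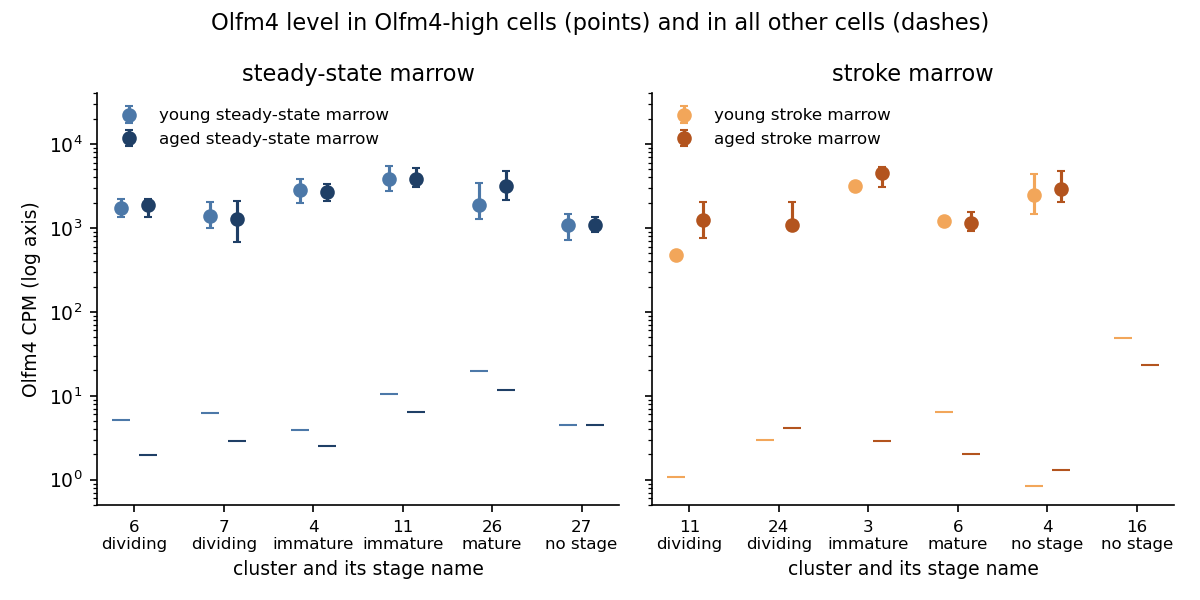
Olfm4 level (y axis, CPM, log axis) in the same clusters. Points with bars are the median and quartiles over Olfm4-high cells (clusters with at least 2 such cells), and dashes are the level over all other cells of the cluster (levels of 0 are not drawn). The high cells' medians lie above the dashes in every cluster where both are drawn. That order follows from the UMI threshold that defines the high cells, so it is not separate evidence of distinct states. The other cells lie at 20 CPM or below except in the shallow cluster 16.

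Over sums of cell type (or stage) and library, 8 genes were named as most like Olfm4 in level. The measure was Pearson's r of log2(CPM + 20) over 55 sums of at least 30 cells, among 5767 genes, and the sums share libraries, so r is a description. The 8 highest were Itgb2l (r = 0.942), a beta-2-like integrin of neutrophils, Abca13 (0.942), a lipid transporter, Adpgk (0.925), a glucokinase that uses ADP, 4930438A08Rik (0.918), 1700047M11Rik (0.917), Mapk13 (0.915), a p38 kinase, AA467197 (0.914) and B230208H11Rik (0.911). Itgb2l was also among the markers that named immature clusters, so its likeness is not independent of how the sums were made. In the immature cells the young stroke library was set apart for Olfm4 and not for the first 3 of the 8. They had 56.4 CPM of Olfm4 against 517 and 435 in young and aged steady-state marrow and 722 in aged stroke. In the same cells Itgb2l had 311 CPM against 347, 377 and 296, Abca13 147 against 135, 124 and 129, and Adpgk 655 against 688, 709 and 586. In the mature cells, in contrast, the young stroke library was the lowest of the 4 for all of them, with 64.2 CPM of Olfm4 against 533, 361 and 231, 109 of Itgb2l against 334, 334 and 191, 48.2 of Abca13 against 109, 86.9 and 87.1, and 203 of Adpgk against 633, 613 and 285. None of the 8 passed the test between Olfm4-high and Olfm4-zero cells described next, with log2 fold changes from -0.11 to 0.12.

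To ask which other genes accompany Olfm4, each Olfm4-high cell was paired with an Olfm4-zero cell of the same library, the same cluster and the nearest UMI total. This gave 235, 132, 19 and 98 pairs, and the counts were summed to 1 high and 1 zero sum per library. Few other genes separated the 2 kinds of cell. In edgeR's quasi-likelihood test with library as a block, 21 of 6775 genes passed a Benjamini-Hochberg adjusted p of 0.05, or 0.310% (percent of all genes tested), 4 higher (0.0590%) and 17 lower (0.251%) in Olfm4-high cells. The median log2 fold change over all genes was 0.00 and the median absolute value 0.13. At an unadjusted p under 0.05 there were 379. The p-values weigh the difference against its spread between 4 libraries of different age and treatment, with 3 residual degrees of freedom and a spread largely pooled over genes, and cells of 1 library are not independent animals. The calls also turned on how cells were paired: 1 gene (Stfa1) passed when the pair was the nearest cell in principal components, 1 (Mmp8) when clusters were finer, and 0 with DESeq2 (73 unadjusted). The components were built from the 2000 most variable genes, Olfm4 left out. Genes among them enter that pairing, which can lessen their difference. How far it did so for the called genes was not tested.

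Among the specific granule genes, the class to which the Olfm4 protein belongs, 1 of 11 tested was higher and none lower, with a median log2 fold change of 0.02. Mmp8, the neutrophil collagenase, was the one that rose. It had 1041 CPM in high and 899 in zero cells of young steady-state marrow, 1042 and 696 in aged, 2015 and 1655 in young stroke and 1076 and 769 in aged stroke. All 4 libraries pointed the same way (log2 fold change 0.40 ± 0.05 SE, edgeR adjusted p = 5.25e-10). It passed in 12 of 14 alternative analyses, and its value fell to 0.02 with pairs taken in principal components. The most abundant members did not pass the test. Camp (cathelicidin) had 56429 CPM in high and 53115 in zero cells of young steady-state marrow, 59699 and 56941 in aged, 36586 and 35522 in young stroke and 43853 and 47171 in aged stroke. The log2 fold changes were 0.03 for Camp, 0.02 for Ngp (neutrophilic granule protein), 0.03 for Lcn2 (lipocalin 2) and 0.01 for Ltf (lactoferrin).

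Azurophil granule genes supplied 5 of the 17 lower genes, out of 10 tested, with a median of -0.23 and none higher. Mpo (myeloperoxidase) had 417 CPM in high and 621 in zero cells of young steady-state marrow, 134 and 250 in aged, 3.72 and 18.6 in young stroke and 20.1 and 69.3 in aged stroke, and was lower in all 4 libraries (-0.80 ± 0.09, edgeR adjusted p = 1.18e-11). Elane (neutrophil elastase) had 1278 and 1968, 309 and 642, 14.9 and 7.44, and 138 and 493 CPM, and was lower in 3 of 4 libraries (-1.04 ± 0.07, adjusted p = 2.13e-26). Prtn3 (proteinase 3, -0.84) and Ctsg (cathepsin G, -0.47) were likewise lower in 3 of 4, and Ms4a3 (-0.31) in 4 of 4. The young stroke library held few UMIs of these genes. Its high and zero cells had 1 and 5 of Mpo, 4 and 2 of Elane, and 9 and 5 of Prtn3. They had 3 and 2 of Ctsg and 7 and 9 of Ms4a3, so the direction in that library carries little weight. Over the 4 libraries a large part of the UMIs of these genes lay in few cells of either kind. Of the Elane UMIs, 47.7% in high and 32.8% in zero cells lay in 5 of 484 cells, and the share of cells with any Elane UMI was 54.9% and 51.1% in young and 56.1% and 56.1% in aged steady-state marrow. After stroke that share was 21.1% in high and 10.5% in zero cells of the young library and 33.7% and 26.5% in the aged one. In no library was it lower in high cells. For Mpo the 5 cells held 45.2% and 30.7%. The part of these cells in the difference was not tested. Elane, Prtn3 and Mpo each passed in 11 of 14 alternative analyses, Ctsg in 8 and Ms4a3 in 5. With pairs taken in principal components the values were 0.16 for Elane, 0.11 for Mpo, 0.12 for Prtn3, 0.33 for Ctsg and 0.05 for Ms4a3, opposite in sign and not past the test. That pairing itself uses the levels of variable genes, so it can lessen a difference in them. The other azurophil genes named, Cd63, Man2b1, Hexa and Prss57, had -0.05, 0.15, 0.00 and -0.04.

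**Figure D4:**
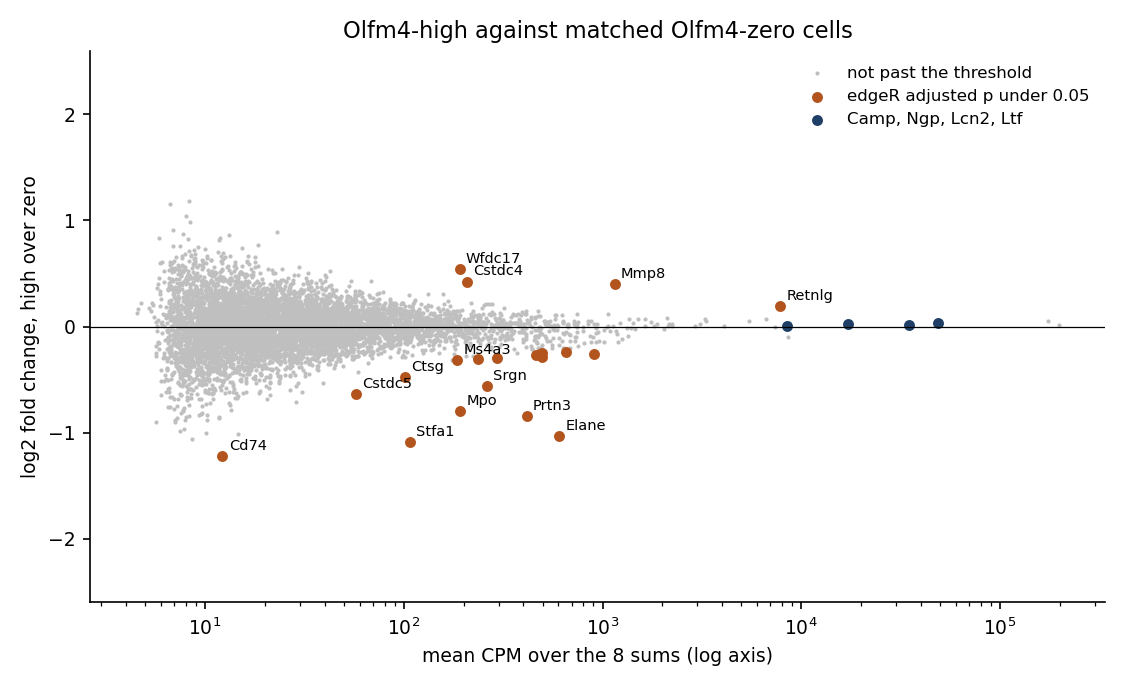
Log2 fold change of Olfm4-high over matched Olfm4-zero cells (y axis) against the mean level over the 8 sums (x axis, CPM, log axis) for 6775 genes. The 21 genes past the edgeR threshold are in orange (those without a name are ribosomal protein genes), and the specific granule genes Camp, Ngp, Lcn2 and Ltf, in blue, lie at 0.03 or less.

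Ribosomal protein genes gave 8 of the lower genes (among them Rps2, Rplp0, Rpl22 and Rplp1), each lower in all 4 libraries by a log2 value of -0.24 to -0.30. Rps2 had 627 CPM in high and 731 in zero cells of young steady-state marrow, 396 and 490 in aged, 167 and 301 in young stroke and 563 and 678 in aged stroke. Over all 88 such genes tested, a group chosen after the values were seen, the median was -0.14. Srgn (serglycin, the proteoglycan core of granules) was lower in all 4 libraries, at 266 and 464, 127 and 221, 238 and 350, and 206 and 229 CPM (-0.56 ± 0.08, edgeR adjusted p = 3.08e-08). Retnlg, a secreted resistin-like protein of maturing neutrophils, was higher in all 4 (0.19 ± 0.04, adjusted p = 0.00311), with 4641 and 4081 CPM in young steady-state marrow. Retnlg passed in 5 of 14 alternative analyses and Srgn in 11, and with pairs taken in principal components they had 0.07 and -0.01. The ribosomal genes passed in 3 to 8 of the 14. Retnlg was the only 1 of 12 alarmins and secreted proteins past the test, and S100a8 and S100a9 lay at 0.05 and 0.01.

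Of the cathepsin C and protease inhibitor genes, 2 of 8 passed, in opposite directions and not in every library. Stfa1 (stefin A1, -1.09) had 44.7 and 44.1 CPM in high and zero cells of young steady-state marrow, 23.2 and 32.3 in aged, 294 and 0 in young stroke and 54.8 and 368 in aged stroke. Of its 756 UMIs in zero cells, 343 came from 1 cell. Wfdc17 (a secreted whey acidic protein, 0.54) had 26.3 and 15.9, 48.2 and 51.1, 889 and 167, and 152 and 178 CPM, and without the young stroke library its value was -0.09. Cathepsin C, which olfactomedin 4 is reported to inhibit, had 46 UMIs in all high and 35 in all zero cells and was too low to be tested. The reported partners that could be tested, Ndufa13, Ctsd and Nod1, had -0.03, 0.13 and 0.06. Cstdc4 (0.42), Cstdc5 (-0.63) and Cd74 (-1.22) also passed, and they are named although they were not of the same sign in every library. Of the UMIs of Cd74, a gene of antigen-presenting cells, 67.6% in zero cells lay in 5 cells.

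No member passed among the remaining lists. Counts of genes tested and median log2 fold changes were 10 and 0.07 for gelatinase granules and secretory vesicles (Mmp9 0.12), 11 and 0.08 for receptors of retention and release (Cxcr2 0.18, Ly6g 0.06), and 6 and 0.04 for the NADPH oxidase (Cybb 0.07). They were 10 and -0.05 for transcription factors of granulopoiesis (Cebpe 0.01, and Spi1, the gene of PU.1, 0.12), 8 and 0.02 for NF-kB targets and inhibitors (Nfkbia -0.10), and 8 and 0.20 for interferon-stimulated genes (Ifitm3 -0.01). They were 22 and 0.00 for cell division (Mki67 0.04, Top2a -0.08) and 9 and -0.02 for immediate early genes. Only Olfml2b of the other olfactomedin genes was tested (0.17). The 5 nearest tested genes on either side of Olfm4 did not pass either. The closest were Sugt1 349 kb before it (0.06) and Diaph3 6632 kb after it (-0.49), and Elf1, 402 kb before it, had 0.37 (edgeR adjusted p = 0.726).

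**Figure D5:**
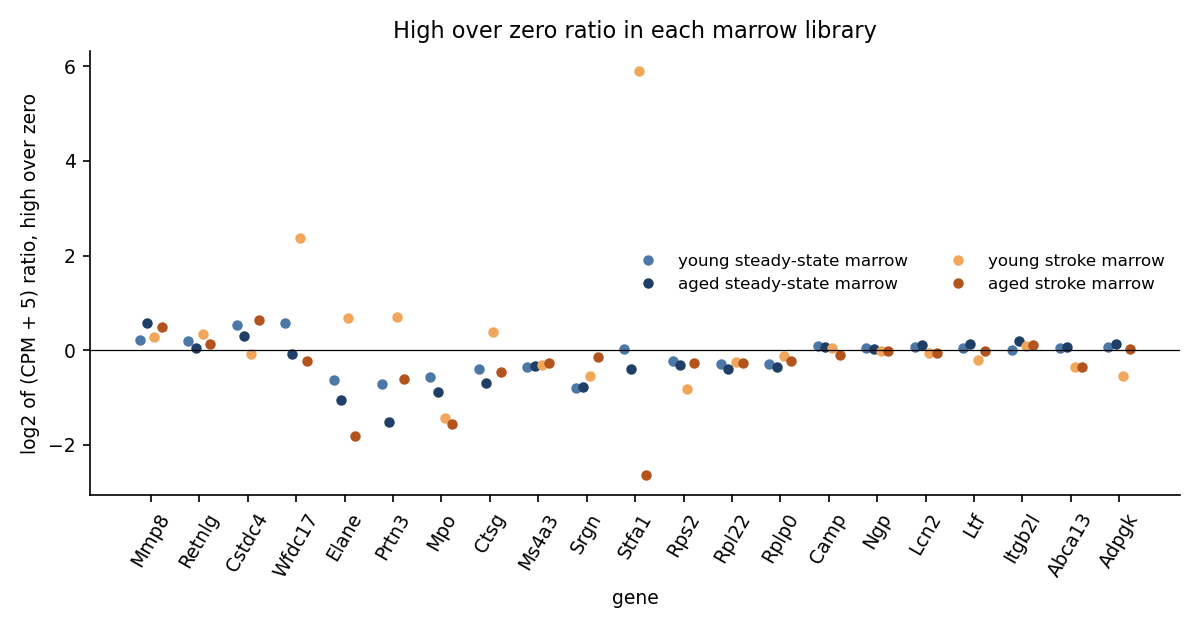
Log2 ratio of (CPM + 5) between Olfm4-high and matched Olfm4-zero cells (y axis) for named genes (x axis) in each of the 4 marrow libraries. Mmp8 and Retnlg lie above 0 and Mpo, Ms4a3, Srgn, Rps2, Rpl22 and Rplp0 below 0 in all 4, with few UMIs of Mpo and Ms4a3 in young stroke. Camp, Ngp and Lcn2 lie close to 0. Stfa1 (5.90) and Wfdc17 (2.37) are set apart in the young stroke library, and Stfa1 lies at -2.64 in the aged stroke library.

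Whether these differences changed with age was tested as an interaction, with 2 residual degrees of freedom. It called 5 of 6775 genes (0.0738%), 1 higher (0.0148%) and 4 lower (0.0590%), with 207 at an unadjusted p under 0.05. Stfa1 (-3.53), Cstdc5 (-2.90), Wfdc17 (-2.12) and Elane (-0.84) had a lower high-over-zero ratio in aged than in young libraries, and Hist1h2ab, a histone gene, a higher one (1.20). All 5 were concentrated: 5 of 484 cells held 32.8% to 94.2% of their UMIs in the high or the zero cells. Hist1h2ab had 33.7 and 40.5 CPM in high and zero cells of young steady-state marrow, 23.2 and 30.5 in aged, 223 and 510 in young stroke and 574 and 403 in aged stroke, so only the aged stroke library had more in high cells.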

How the data were processed

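The authors deposited raw UMI counts per gene and cell; the submitters' processing notes name STAR 2.5.3a, featureCounts 1.6.4 (Subread), Cell Ranger 3.0.2, UMI-tools and the build GRCm38 (mm10), without roles. Cells were kept if they had 500 UMIs, 200 genes and no more than 10% mitochondrial counts, and doublets (score above 0.25, own Scrublet-type implementation) left out. Each context was clustered without Olfm4 (2000 variable genes, 30 components, 15 neighbours, Leiden resolution 1; scikit-learn 1.9.0, leidenalg 0.10.2). Clusters were named by the mean log2 fold of their 5 highest markers (at least 1.5), and by stage where stage scores differed by 0.3 or more; these thresholds were set after cluster tables had been seen. Olfm4 was left out of the paired sums, tested with edgeR 4.0.16 (TMM, filterByExpr) and, as an alternative, DESeq2 1.42.0. On simulated counts for that comparison (6775 genes) 65.7%, 98.5% and 100% of genes changed 1.5-, 2- and 4-fold were recovered, with 10 false calls. The simulation gave every gene the same dispersion and changed only genes with a mean of at least 20 counts. It therefore does not cover genes whose UMIs lie in few cells, such as Elane or Stfa1. Named genes were up to 12 per direction past the threshold with a mean of 20 CPM and the same sign in every library, the 8 most alike, the called and up to 4 other most abundant members of each of 14 lists, and 5 neighbours on each side. The gene, lists and tests were chosen with earlier results of these data known. Sequences are from RefSeq, gene positions from GENCODE.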

Additional observations from a re-analysis of the deposited data

Results flagged for a closer look

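The share of Olfm4-high cells in the neutrophil lineage of marrow moved in opposite directions between steady state and stroke in the 2 ages: by -11.1 percentage points in young (14.7% to 3.63%) and by 3.34 in aged (11.4% to 14.7%). Each value compares 1 library with 1 other, and the difference was not tested. The 2 aged intervals overlapped, and at Leiden resolution 2 the aged shares were 11.9% and 12.7%. The high-over-zero ratio of 5 genes differed between ages in the edgeR interaction test, by a log2 value of -3.53 for Stfa1 (0 UMIs in the 19 zero cells of young stroke), -2.12 for Wfdc17, -2.90 for Cstdc5, -0.84 for Elane and 1.20 for Hist1h2ab. The part that the few cells holding most of these UMIs have in the result was not tested.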

How the results depend on the processing

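The count of genes that differ between Olfm4-high and Olfm4-zero cells was 21. It was 0 with the DESeq2 test, 8 with high cells at 2 or more UMIs, 44 with pairs matched on cluster alone, 1 with pairs in principal components, 11 with doublets kept and 1 at Leiden resolution 2. Without 1 library at a time it ranged from 10 (without young steady-state marrow) to 20. It stayed within 1.5 times of 21 in the other alternatives, including clusters with a stage name (15), which was chosen after seeing the data. The cause was not tested. With pairs in principal components, which themselves use the levels of variable genes, Mpo (0.11), Ms4a3 (0.045), Elane (0.16), Prtn3 (0.12) and Ctsg (0.33) reversed. Ctsg also reversed at resolution 2 (0.080). Stfa1 reversed with the DESeq2 test (0.13) and Cstdc5 with pairs on cluster alone (1.49). Without 1 library at a time Stfa1 ranged from -1.80 to 0.75 (without aged stroke), Cstdc5 from -1.05 to 0.78 (without aged stroke) and Wfdc17 from -0.091 (without young stroke) to 1.34. The interaction count of 5 was 7 with no filter and 5 at 5 or more UMIs.

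With 1 or more UMIs as the threshold, the share of lineage cells was 18.3%, 14.2% and 5.73% in young and aged steady-state and young stroke marrow, and 1.41% and 1.595% in blood. With 5 or more UMIs it was 0.128% and 0.0613% in blood. Thinned to 2000 UMIs it was 10.97%, 8.04%, 1.88% and 11.6% in marrow, fewer because each cell then holds fewer UMIs. At Leiden resolution 2, with 3 or more UMIs, it was 15.2% and 11.9% in young and aged steady-state marrow and 2.51% and 12.7% after stroke. The lineage level in young and aged steady-state marrow was 334 and 290 CPM at resolution 2 and 237 and 198 CPM with doublets kept, and in young stroke 43.3 CPM over clusters with a stage name. Of the 8 most alike genes, 6 stayed among the 8 highest with a pseudocount of 5 CPM and 7 with sums of at least 60 cells. Rare high cells limit the young stroke library. No paired analysis was possible because each group had 1 library, so no replicate numbers join libraries across groups. The test between high and zero sums has the library as a term.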
